A study of Mus musculus with 4 samples.

Results

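The comparison set the left ventricle of aged mice 24 h after ischemia/reperfusion (I/R) against the left ventricle of aged mice after a sham operation. Both groups were male C57BL/6J wild-type mice of 24 to 26 months. The I/R group had 45 min of ischemia followed by 24 h of reperfusion. The labels call the sham tissue healthy and unaltered, whereas the sample titles and the study's methods call it sham, and the name sham is used here. Each condition was 1 droplet library of the 10x Genomics system, so 2 of the 4 libraries of the series were compared, and the number of animals in a library is not given in the sources used here. The labels name nuclear RNA as the molecule, while the study describes single cells. All genes that reached at least 100 unique molecular identifiers (UMIs, counts of captured RNA molecules) over the pair entered the comparison, which gave 13722 of 32285 genes.

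Restoring flow to ischemic heart muscle ends the lack of oxygen but adds its own injury, with calcium overload, reactive oxygen and opening of mitochondrial pores. Damaged muscle then releases signals that bring in neutrophils first and monocytes later, while cardiomyocytes, vessels and fibroblasts switch on secreted acute phase proteins, chemokines and matrix proteins. Old hearts are known to tolerate this sequence less well than young hearts, and the fuel choice of their mitochondria is less flexible.

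The 2 libraries held 100342 barcodes with 41356670 UMIs for aged sham and 91124 barcodes with 66767829 UMIs for aged I/R, with medians of 391 and 675 UMIs per barcode. Barcodes with 200 or more detected genes made up 67.9% of aged sham and 98.8% of aged I/R. The libraries shared 2514 barcode sequences. Every barcode of both libraries held 5 or more UMIs of the cardiomyocyte marker list, making up 1% or more of its total, and Myh6 alone was found in 98.4% of the sham and 99.98% of the I/R barcodes. Endothelial, fibroblast and macrophage markers, the other cell types in the labels, were all detected in both libraries, but barcodes rich in them were few: 79, 35 and 5 in the sham and 56, 17 and 2 in the I/R library. Myh6 stood at 12287 CPM (counts per 1000000 UMIs) in the endothelial-marker-rich barcodes of aged sham against 13165 CPM over the whole library, so these barcodes also carried cardiomyocyte RNA. For genes with 100 or more UMIs in a library, the number of barcodes that held a gene was close to the number given by spreading its UMIs by depth. The median ratio was 0.999 over 11871 genes in aged sham and 0.997 over 12856 genes in aged I/R. For genes with few UMIs this ratio cannot tell an even spread from a subset of barcodes. UMIs were summed over all barcodes, and no cell types were compared. In such sums, fewer cells of a type and less RNA per cell cannot be told apart.

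Values are CPM in each library and the relative log2 ratio, which is the log2 ratio of CPM, aged I/R over aged sham, minus 0.087, its median over the 13722 genes. On this scale 1 means a ratio of I/R to sham 2-fold that of the median gene, and 0.585 a ratio 1.5-fold that of the median gene. A value in parentheses after CPM values is the relative log2 ratio. Its 95% intervals are exact conditional binomial intervals of the 2 UMI sums and cover counting error only. No condition had a replicate, so there was no test, and the condition, the animals and the preparation cannot be told apart. The same calculation for the young pair (young I/R over young sham, mice of 3 to 5 months, also 1 library each) is given beside some of the aged values. The median subtracted there was -0.44, so a gene with the same CPM in both young libraries stands above 0. A positive young value can therefore go with equal or lower CPM in young I/R. The difference between the pairs was not tested.

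Most genes differed little between the aged libraries. The relative log2 ratio lay within 1.5-fold of the median for 78.6% of genes, between -0.31 and 0.31 for the middle 50 percent, and between -1.20 and 1.36 from the 1st to the 99th percentile. At least 2-fold higher in aged I/R were 383 genes (2.79%), and at least 2-fold lower were 277 genes (2.02%). At the 1.5-fold limit 1540 genes (11.2%) were higher and 1396 (10.2%) lower. These shares are the background for the counts that follow. With the libraries scaled to total UMIs and no centring, the counts were 491 higher and 206 lower at 2-fold and 1974 higher and 1019 lower at 1.5-fold. Counting error was small beside these folds for most genes, since the interval of the ratio lay beyond 1.5-fold for 336 of the 383 higher and 260 of the 277 lower genes. Of the 383 higher genes 270 were protein-coding, and 45.7% overlapped another gene on the opposite strand, against 28.5% of the 277 lower genes and 37.0% of all genes. Whether the counting used strand is not given in the sources used here, so reads of such overlapping genes may not have been told apart.

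**Figure D1:**
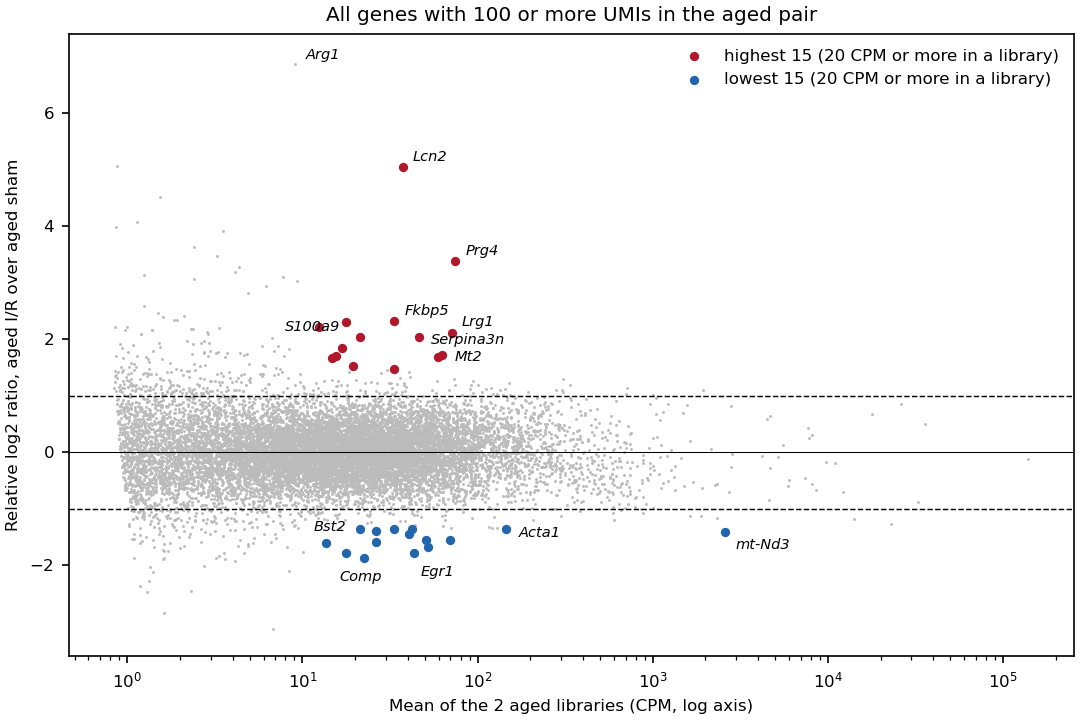
Relative log2 ratio of aged I/R over aged sham (vertical axis) against the mean CPM of the 2 aged libraries (horizontal log axis) for 13722 genes, 1 grey point each. Dashed lines mark 2-fold. The 15 highest (red) and 15 lowest (blue) genes with 20 CPM or more in a library are coloured, from Lcn2 at 5.04 down to Comp at -1.87, and Arg1 at 6.87 lies above all others.

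The 15 highest ratios among genes with 20 CPM or more in either library included secreted acute phase proteins, neutrophil proteins and targets of the glucocorticoid receptor. Others of the 15 were outside those groups, among them Prg4, Spock2, Pdia4, Hmgn5 and Gm12840. Lcn2, which encodes the siderophore-binding protein lipocalin-2 (chr2:32384633-32388252, GRCm38), stood at 2.08 CPM in aged sham and 72.6 CPM in aged I/R, a relative log2 ratio of 5.04 (4.73 to 5.36). It rested on 86 UMIs in the sham and 4848 UMIs in the I/R library. The young pair gave 6.49. Saa3, an acute phase serum amyloid, had 0.774 CPM in aged sham and 7.44 CPM in aged I/R (3.18, interval 2.66 to 3.74). Lrg1, a leucine-rich glycoprotein of the acute phase response, had 25.4 CPM in aged sham and 117 CPM in aged I/R (2.12, interval 2.02 to 2.21). Serpina3n, a secreted inhibitor of serine proteases that belongs to a family of similar neighbouring genes, had 17.3 CPM in aged sham and 74.9 CPM in aged I/R (2.03, interval 1.92 to 2.15). All 4 lay above the 99th percentile of all genes, but they were named for their high ratios.

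Acute phase secreted proteins as a list had 13 measured members with a median relative log2 ratio of 0.95, against 0 over all genes by construction. 8 members were at least 1.5-fold higher and 0 lower. The others on the higher side were the pentraxin Ptx3 (0.339 and 1.603 CPM in aged sham and aged I/R, ratio 2.16), the metalloprotease inhibitor Timp1 (18.5 and 45.9 CPM, ratio 1.23), haptoglobin Hp (5.95 and 12.2 CPM, ratio 0.95) and the ferroxidase ceruloplasmin, Cp (151 and 245 CPM, ratio 0.61). Complement C3 and C4b, also made in the acute phase, were nearer to the median gene at 0.20 and -0.21. The list's summed level was 521 CPM in aged sham and 921 CPM in aged I/R, and its young median was 3.31.

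Neutrophil markers were also higher. Of the 16 listed, 10 reached the minimum of UMIs, their median relative log2 ratio was 1.91, and 8 were at least 1.5-fold higher and 1 lower. S100a9 (chr3:90692632-90695721), a subunit of calprotectin, had 7.98 CPM in aged sham and 34.8 CPM in aged I/R (2.04, interval 1.87 to 2.21), and its partner S100a8 had 6.99 CPM in aged sham and 26.7 CPM in aged I/R (1.85, interval 1.67 to 2.03). Csf3r, the receptor for granulocyte colony-stimulating factor, had 6.96 CPM in aged sham and 24.1 CPM in aged I/R (1.70, interval 1.52 to 1.89). Cxcr2, the receptor through which neutrophils follow CXC chemokines, had 0.411 CPM in aged sham and 6.60 CPM in aged I/R (3.92, interval 3.22 to 4.71), and the interleukin-1 decoy receptor Il1r2 had 0.339 CPM in aged sham and 4.45 CPM in aged I/R (3.63, interval 2.86 to 4.52). Both rested on fewer than 20 UMIs in aged sham. The gelatinase Mmp9 had 1.43 CPM in aged sham and 5.18 CPM in aged I/R (1.77). The member on the lower side was Cxcr4, a receptor that holds neutrophils in bone marrow but is found on many cells (3.34 and 1.53 CPM, ratio -1.21). The summed neutrophil level was 57.0 CPM in aged sham and 134 CPM in aged I/R, no listed marker was at 0 in either library, and the young median was 3.44.

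In aged I/R the UMIs of S100a9 and Lcn2 were not piled up in few barcodes. S100a9 was found in 0.326% of the sham and 2.51% of the I/R barcodes, which was 0.993 and 0.997 of the number given by spreading its UMIs over barcodes by depth. Lcn2 was found in 5.13% of the aged I/R barcodes, 0.995 of that number. In aged sham S100a9 had 330 UMIs and Lcn2 86, too few to tell an even spread from a subset of barcodes. Barcodes rich in neutrophil markers numbered 0 in the sham library, a count that allows up to 3 of its 100342 barcodes, and 1 in the I/R library. The cells in which these transcripts arose were not tested.

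Integrin alpha M, Itgam, which marks neutrophils and monocytes, had 6.79 CPM in aged sham and 22.8 CPM in aged I/R (1.66, interval 1.48 to 1.85). Arg1, arginase 1 of alternatively activated macrophages, had the highest ratio of all 13722 genes. It lay below the 20 CPM limit for naming and was chosen after its values were seen. It had 6 UMIs in the sham and 1206 UMIs in the I/R library, or 0.145 CPM in aged sham and 18.1 CPM in aged I/R (6.87, interval 5.75 to 8.32), beside 6.87 in the young pair. General macrophage markers did not move as a block: the 21 measured markers had a median of 0.22, 5 were at least 1.5-fold higher and 3 lower, and their sum was 541 CPM in aged sham and 618 CPM in aged I/R, with no listed marker at 0. Lyve1 (11.2 and 29.0 CPM, ratio 1.28) and the hemoglobin scavenger receptor Cd163 (9.19 and 20.7 CPM, ratio 1.09) headed this list. The fractalkine receptor Cx3cr1 (7.69 and 2.86 CPM, ratio -1.51) and the folate receptor Folr2 (8.004 and 5.23 CPM, ratio -0.70) closed it. Lyve1 is also a lymphatic marker, and Cx3cr1 overlaps several genes on the opposite strand.

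Chemokines, interleukins and their receptors spread in both directions. Of 31 measured members of this chosen list 13 were at least 1.5-fold higher and 6 lower, with a median of 0.46. All 13 measured Ccl genes, listed or not, had a median of 0.18, with 4 at least 1.5-fold higher and 5 lower. On the higher side were ligands of Cxcr2: Cxcl2 (0.774 and 7.97 CPM, ratio 3.28), Cxcl5 (1.55 and 14.0 CPM, ratio 3.09) and Cxcl1 (2.80 and 6.34 CPM, ratio 1.09). The monocyte attractant Ccl2 had 3.97 CPM in aged sham and 11.3 CPM in aged I/R (1.43) and the cytokine Il1b 2.08 CPM in aged sham and 7.23 CPM in aged I/R (1.71). Cxcl12, the ligand of Cxcr4, had 124 CPM in aged sham and 218 CPM in aged I/R (0.73, interval 0.68 to 0.77). On the lower side were interferon-induced ligands of Cxcr3, a chemokine receptor found on T cells. Cxcl9 had 6.48 CPM in aged sham and 1.81 CPM in aged I/R (-1.92). Cxcl10 had 1.77 CPM in aged sham and 0.614 CPM in aged I/R (-1.61). The T-cell chemokine Ccl5 was also lower (-1.30).

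Transcripts known to respond to glucocorticoids were higher, with exceptions, and so were the metal-responsive genes Mt1 and Mt2. Fkbp5, a co-chaperone of the glucocorticoid receptor and a standard readout of its activity (chr17:28399094-28517527), had 10.6 CPM in aged sham and 56.3 CPM in aged I/R (2.32, interval 2.18 to 2.47), beside 2.67 in the young pair. Zbtb16, a zinc finger transcription factor that glucocorticoids induce, had 26.9 CPM in aged sham and 92.0 CPM in aged I/R (1.69, interval 1.59 to 1.78). The metal-binding metallothioneins Mt2 and Mt1 had 27.7 CPM in aged sham and 97.5 CPM in aged I/R (1.73, interval 1.64 to 1.82) and 227 CPM in aged sham and 458 CPM in aged I/R (0.93, interval 0.89 to 0.96). Over the 16 measured receptor targets, which include Lcn2, Mt2 and the clock gene Per1, the median was 0.74, and 9 were at least 1.5-fold higher and 1 lower. Other members on the higher side were the C/EBP-family factor Cebpd (0.93), the mTORC1 inhibitor Ddit4 (0.88) and Per1 (0.86). Dusp1, a MAP kinase phosphatase counted among the same targets, went the other way with 47.0 CPM in aged sham and 19.5 CPM in aged I/R (-1.35, interval -1.45 to -1.25), and the kinase Sgk1 and leucine zipper protein Tsc22d3 stood at -0.47 and -0.40. Dusp1 overlaps Ergic1, and Fkbp5 and Mt2 overlap unnamed transcripts, on the opposite strand. Of the 8 measured genes of metallothioneins and zinc transport 3 were at least 1.5-fold higher, the third being the zinc importer Slc39a14 (0.65). The neuronal metallothionein Mt3 was the 1 lower gene (3.26 and 1.27 CPM, ratio -1.45). The zinc transporter Slc30a1 was near the median gene (20.3 and 20.4 CPM, ratio -0.078).

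Promoter sequences are printed for 5 of these higher genes because their groups are known to be driven through short motifs of C/EBP factors, NF-kB, the glucocorticoid receptor and the metal-responsive factor. The windows are the RefSeq promoters of GRCm38.p6, up to 250 bases upstream of the start, without bases of annotated exons. The motifs searched on both strands were TTGCNNAA for C/EBP, GGGNNTTTCC for NF-kB, GNACANNNTGTNC for the glucocorticoid receptor, TGCGCNC for the metal response, TTCNNNGAA for STAT and GAAANNGAAA for the interferon response, and matches are in capitals. The metal response form TGCACNC was not searched, and the windows of Mt2 and Mt1 hold it in small letters. Saa3 lies at chr7:46715701-46715926, minus strand, with a C/EBP and an interferon response match:
Saa3: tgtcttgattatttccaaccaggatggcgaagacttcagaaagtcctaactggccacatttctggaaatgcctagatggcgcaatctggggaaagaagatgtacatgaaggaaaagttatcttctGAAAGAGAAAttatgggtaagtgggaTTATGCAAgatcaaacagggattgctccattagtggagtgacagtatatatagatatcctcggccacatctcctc
S100a9 lies at chr3:90695722-90695971, minus strand, with a C/EBP match:
S100a9: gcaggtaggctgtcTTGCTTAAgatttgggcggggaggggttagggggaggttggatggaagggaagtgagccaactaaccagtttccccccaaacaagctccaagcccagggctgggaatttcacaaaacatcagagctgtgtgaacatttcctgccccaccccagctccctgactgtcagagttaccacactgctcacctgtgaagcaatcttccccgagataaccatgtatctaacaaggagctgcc
Serpina3n lies at chr12:104406458-104406707, plus strand, with an NF-kB match followed by a glucocorticoid response match:
Serpina3n: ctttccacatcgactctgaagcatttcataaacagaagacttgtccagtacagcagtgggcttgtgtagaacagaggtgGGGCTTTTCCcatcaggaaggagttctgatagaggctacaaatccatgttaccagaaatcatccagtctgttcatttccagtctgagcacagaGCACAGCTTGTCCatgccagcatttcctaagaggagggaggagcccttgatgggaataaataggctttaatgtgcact
Mt2 lies at chr8:94172368-94172617, plus strand, with a metal response match followed by a C/EBP match:
Mt2: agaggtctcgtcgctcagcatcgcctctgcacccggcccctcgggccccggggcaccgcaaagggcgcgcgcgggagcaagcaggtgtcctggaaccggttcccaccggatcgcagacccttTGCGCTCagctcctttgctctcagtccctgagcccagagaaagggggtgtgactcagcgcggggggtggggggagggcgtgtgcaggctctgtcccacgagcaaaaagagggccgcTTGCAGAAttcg
Mt1 lies at chr8:94178839-94179081, plus strand, with a glucocorticoid response match:
Mt1: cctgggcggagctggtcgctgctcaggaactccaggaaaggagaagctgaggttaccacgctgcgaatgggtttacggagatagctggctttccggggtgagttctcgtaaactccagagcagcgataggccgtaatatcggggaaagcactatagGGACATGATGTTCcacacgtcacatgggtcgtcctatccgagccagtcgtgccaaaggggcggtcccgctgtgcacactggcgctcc
Shares of promoters were counted over the full 250 bases upstream of the start, with bases of annotated exons kept. Of 11 promoters of the measured acute phase genes, 5 (45.5%) held the C/EBP letters, those of Lcn2, Cp, Ptx3, Saa3 and C3, against 9.56% of 32851 promoters. The glucocorticoid letters were in 0.387% of all promoters and in 1 of 23 promoters of the measured receptor targets, that of Sgk1. Without exon bases the windows of Fkbp5, Lrg1 and S100a8 had 250, 195 and 157 bases and held none of the 6 motifs. The metal response letters were in 12.5%, the NF-kB letters in 1.41%, the STAT letters in 7.02% and the interferon letters in 2.98% of all promoters. Of 9 promoters of the metallothionein and zinc transport genes 1 (11.1%) held the metal response letters, that of Mt2. Of 9 promoters of the neutrophil markers 2 (22.2%) held the C/EBP letters. A match describes the letters only.

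Matrix genes were found at both ends of the ranking. Prg4, the lubricating proteoglycan lubricin (chr1:150449412-150466165), had 12.4 CPM in aged sham and 137 CPM in aged I/R (3.37, interval 3.25 to 3.51), and the young pair gave 3.54. Prg4 overlaps the end of the nuclear pore gene Tpr on the opposite strand, and Tpr itself had 169.7 CPM in aged sham and 389 CPM in aged I/R (1.11). The matricellular proteins osteopontin, Spp1, and tenascin C, Tnc, had 1.93 CPM in aged sham and 16.8 CPM in aged I/R (3.03, interval 2.70 to 3.38) and 1.16 CPM in aged sham and 8.66 CPM in aged I/R (2.81, interval 2.39 to 3.27). Fibronectin, Fn1, had 33.6 CPM in aged sham and 76.8 CPM in aged I/R (1.11, interval 1.02 to 1.19). Spock2, a secreted testican proteoglycan, had 5.68 CPM in aged sham and 29.6 CPM in aged I/R (2.30, interval 2.10 to 2.50). The matrix repair list also held members on the lower side. Comp, the cartilage oligomeric matrix protein, had 34.9 CPM in aged sham and 10.1 CPM in aged I/R (-1.87, interval -2.004 to -1.74), the lowest ratio among genes with 20 CPM or more, beside -0.054 in the young pair. Periostin, Postn, had 108 CPM in aged sham and 61.0 CPM in aged I/R (-0.91, interval -0.98 to -0.85). Of the 20 measured matricellular and matrix repair genes 8 were at least 1.5-fold higher and 5 lower, with a median of 0.32.

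Metalloproteases cut matrix and TIMPs inhibit them. Of 14 measured genes on a chosen list of both, 8 were at least 1.5-fold higher and 1 lower, with a median of 0.80. The aggrecanase Adamts4 had 0.943 CPM in aged sham and 3.77 CPM in aged I/R (1.91) and the inhibitor Timp4 15.6 CPM in aged sham and 45.2 CPM in aged I/R (1.45, interval 1.32 to 1.57), while the inhibitor Timp2 was the listed member on the lower side (90.8 and 62.8 CPM, ratio -0.62). The whole families did not share the list's direction. All 11 measured Mmp genes had a median of -0.13, with 3 at least 1.5-fold higher and 4 lower. All 14 measured Adamts genes had a median of 0.096, with 2 higher and 0 lower. Of 13 measured coagulation and fibrinolysis genes 6 were at least 1.5-fold higher and 0 lower (median 0.55). The clotting factors F10 (1.06 and 4.42 CPM, ratio 1.97) and F5 (0.604 and 2.22 CPM, ratio 1.79) led them. The 20 listed collagens lay near the median gene, with a median of -0.063 that changes sign with total-UMI scaling. Of these 0 were at least 1.5-fold higher and 2 lower, Col15a1 (-1.28) and Col4a4 (-0.87), both of basement membranes. Over all 29 measured collagen genes with a Col symbol the median was -0.075, with 1 at least 1.5-fold higher and 6 lower. Against genes of the same length the median of these 29 was -0.23. The small leucine-rich proteoglycans lumican, Lum (59.3 and 24.6 CPM, ratio -1.35), and Prelp (30.2 and 12.5 CPM, ratio -1.36) were among the 15 lowest genes.

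**Figure D2:**
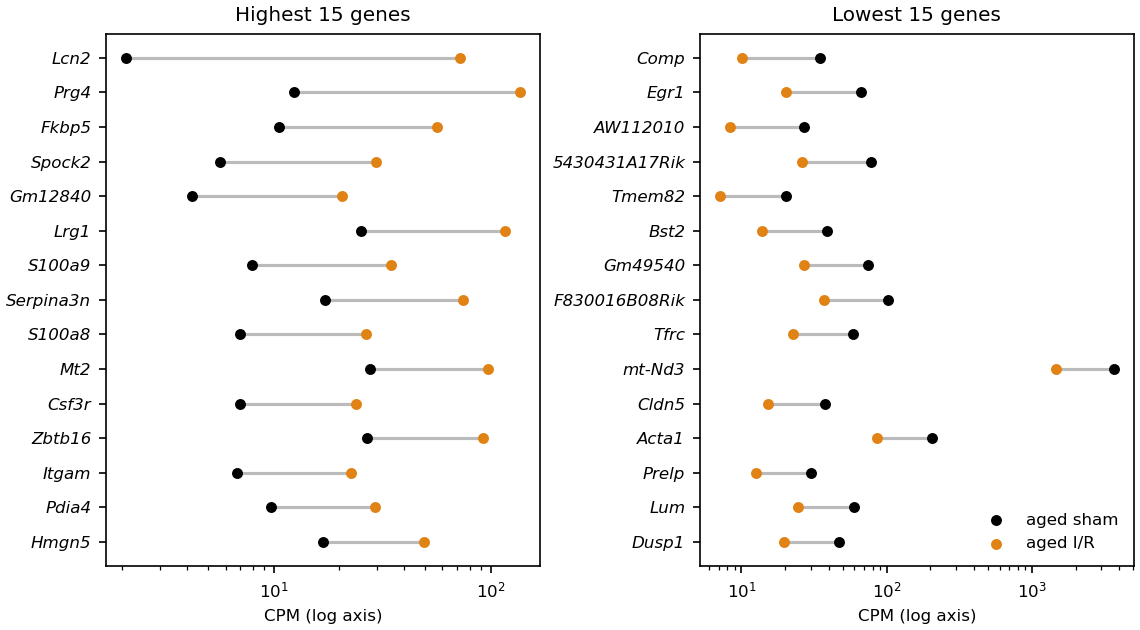
CPM of the 15 highest (left) and 15 lowest (right) genes on a log axis, with 1 point for aged sham and 1 for aged I/R and a line joining them, each from a single library. Lcn2 runs from 2.08 to 72.6 CPM and mt-Nd3 from 3675 to 1471 CPM.

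Interferon-induced genes were lower in aged I/R as a group. None of the 24 measured members was at least 1.5-fold higher and 15 were lower, with a median of -0.67, beside -0.65 in the young pair. Bst2, the antiviral protein tetherin, had 39.0 CPM in aged sham and 13.9 CPM in aged I/R (-1.58, interval -1.70 to -1.46). Irf7, the master factor of the type I interferon response, had 21.2 CPM in aged sham and 10.4 CPM in aged I/R (-1.11, interval -1.26 to -0.96). The oligoadenylate synthetase-like protein Oasl2 had 32.4 CPM in aged sham and 16.2 CPM in aged I/R (-1.09), and viperin, Rsad2, had 59.0 CPM in aged sham and 30.7 CPM in aged I/R (-1.03, interval -1.12 to -0.94). The RNA sensors Ddx58 and Ifih1 stood at the top of the list with 0.15 and 0.051. AW112010, an interferon-induced transcript of immune cells, was among the 15 lowest genes with 26.9 CPM in aged sham and 8.31 CPM in aged I/R (-1.78, interval -1.93 to -1.63). Gm4841, an interferon-inducible GTPase homolog chosen after its values were seen, had 498 UMIs in the sham and 98 UMIs in the I/R library (-3.12), the lowest ratio of all 13722 genes.

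The promoters of Bst2 and Ifit3, which had 13.6 CPM in aged sham and 7.28 CPM in aged I/R (-0.98), are shown because they hold more than 1 match to the interferon response letters GAAANNGAAA, in capitals. Bst2 lies at chr8:71537473-71537722, minus strand, and its capitals join a STAT match and 2 interferon matches that overlap each other:
Bst2: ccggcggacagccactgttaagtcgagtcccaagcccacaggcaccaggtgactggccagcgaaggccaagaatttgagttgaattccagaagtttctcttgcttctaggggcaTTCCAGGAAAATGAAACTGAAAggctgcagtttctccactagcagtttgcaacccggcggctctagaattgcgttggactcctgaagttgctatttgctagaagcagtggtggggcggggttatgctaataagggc
Ifit3 lies at chr19:34583279-34583528, plus strand, with 2 interferon matches on the strand opposite to the gene:
Ifit3: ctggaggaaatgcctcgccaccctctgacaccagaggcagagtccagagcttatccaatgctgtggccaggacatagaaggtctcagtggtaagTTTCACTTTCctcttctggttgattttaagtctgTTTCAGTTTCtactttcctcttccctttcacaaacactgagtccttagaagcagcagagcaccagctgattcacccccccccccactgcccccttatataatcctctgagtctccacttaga
Of 22 promoters of the measured interferon-induced genes, 10 (45.5%) held these letters, against 2.98% of all promoters, both with exon bases kept. Irf7 held none of the 6 motifs in its window of 193 bases without exons.

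Antigen presentation genes were also on the lower side. Of 19 measured members 0 were at least 1.5-fold higher and 9 lower, with a median of -0.52 and a young median of -0.41. The invariant chain Cd74, which guides class II molecules, had 169.9 CPM in aged sham and 71.7 CPM in aged I/R (-1.33, interval -1.38 to -1.28). The class II chains H2-Aa (52.9 and 24.3 CPM, ratio -1.21), H2-Ab1 (-1.22) and H2-Eb1 (-1.23) lay close to it. B2m, the light chain of class I molecules, had 267 CPM in aged sham and 143 CPM in aged I/R (-0.98, interval -1.02 to -0.94). Class I heavy chains were uneven, from -0.75 for H2-K1 over -0.019 for H2-D1 to 0.53 for H2-T23 (10.9 and 16.8 CPM), the highest member of the list, and their similar sequences may not have been told apart in counting. Lymphocyte markers stood lower still: 9 of 16 were measured, 8 of them were at least 1.5-fold lower, and their median was -1.30. The immunoglobulin chain Igkc had 7.04 CPM in aged sham and 2.19 CPM in aged I/R (-1.77) and the B-cell marker Ms4a1 1.69 CPM in aged sham and 0.494 CPM in aged I/R (-1.86), and Cd3e of T cells was the exception at 0.11. Their summed level was 39.3 CPM in aged sham and 21.1 CPM in aged I/R with no listed marker at 0, and the part of this difference in the interferon and class II values was not tested.

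Immediate early genes, which cells switch on within minutes of a stimulus, had no common direction: of 22 measured 4 were at least 1.5-fold higher and 4 lower (median 0.16, young 1.19). Egr1, a zinc finger factor, had 66.3 CPM in aged sham and 20.4 CPM in aged I/R (-1.79, interval -1.88 to -1.69), the second lowest of the genes with 20 CPM or more, while the AP-1 subunits Fos and Jun had 0.62 and 0.64 and the stress factor Atf3 0.97. Myc had 1.45 CPM in aged sham and 3.56 CPM in aged I/R (1.21).

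Cardiomyocyte genes moved apart from each other. The 18 cardiomyocyte markers summed to 105502 CPM in aged sham and 121126 CPM in aged I/R, a relative log2 ratio of 0.11, but their median was -0.47 with 3 at least 1.5-fold higher and 5 lower. Against genes of the same length the median was -0.18. Ryr2, the calcium release channel of the sarcoplasmic reticulum, had 1180.4 CPM in aged sham and 2688 CPM in aged I/R (1.10, interval 1.09 to 1.12). Titin, Ttn, the spring of the sarcomere, had 18041 CPM in aged sham and 34439 CPM in aged I/R (0.85), and the heavy chain Myh6 had 13165 CPM in aged sham and 22388 CPM in aged I/R (0.68). Myh6 was short of 1.5-fold with length centring (0.57), and Ttn was short of it with a fit on length, span and GC (0.40). At the other end Fabp3, the fatty acid carrier of the heart, had 3151 CPM in aged sham and 1503 CPM in aged I/R (-1.15, interval -1.17 to -1.14), cardiac actin, Actc1, 5816 CPM in aged sham and 3433 CPM in aged I/R (-0.85), and myoglobin, Mb, 10270.1 CPM in aged sham and 6852 CPM in aged I/R (-0.67).

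Among 24 sarcomere and Z-disc genes 3 were at least 1.5-fold higher and 3 lower (median 0.23). Leiomodin 2, Lmod2, which lengthens thin filaments, had 172 CPM in aged sham and 446 CPM in aged I/R (1.29, interval 1.25 to 1.33), and the titin cap Tcap had 2202 CPM in aged sham and 1077 CPM in aged I/R (-1.12). Stretch and hypertrophy genes also split, 5 at least 1.5-fold higher and 4 lower of 17. Their median was 0.057, or 0.39 against genes of the same length, and the young median was 1.90. The titin-associated ankyrin proteins Ankrd2 and Ankrd1 had 0.508 CPM in aged sham and 6.01 CPM in aged I/R (3.48, interval 2.85 to 4.19) and 1936 CPM in aged sham and 3645 CPM in aged I/R (0.83, interval 0.81 to 0.84). The actin-binding Xirp1 had 67.9 CPM in aged sham and 157 CPM in aged I/R (1.12). At the lower end of this list skeletal actin, Acta1, had 206 CPM in aged sham and 85.2 CPM in aged I/R (-1.36, interval -1.41 to -1.31), natriuretic peptide A, Nppa, 821 CPM in aged sham and 379 CPM in aged I/R (-1.20, interval -1.23 to -1.18) and the slow heavy chain Myh7 1174 CPM in aged sham and 594 CPM in aged I/R (-1.07, interval -1.09 to -1.05). Natriuretic peptide B, Nppb, had 124 CPM in aged sham and 132 CPM in aged I/R, the same ratio as the median gene. In the young pair Acta1, Nppa and Myh7 stood at 1.28, 2.10 and 0.82. Nppa is also an atrial gene. The 7 measured atrial markers, Nppa among them, had a median of -0.62 with 5 at least 1.5-fold lower. Their sum was 976 CPM in aged sham and 504 CPM in aged I/R with no listed marker at 0. Nppa itself made up 821 and 379 CPM of that sum. Among the other members Sln had -0.84, Myl4 -0.23 and Tbx5 0.40. The part of atrial tissue in the Nppa ratio was not tested. Myh7 overlaps the noncoding RNA Mhrt on the opposite strand, which had 273 CPM in aged sham and 556 CPM in aged I/R (0.94).

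Of 16 measured calcium cycling genes, Ryr2 among them, 7 stood above the median gene. Ryr2 was the 1 at least 1.5-fold higher, and 3 were lower (median -0.24). The calcium pump Atp2a2 had 6938 CPM in aged sham and 4897 CPM in aged I/R (-0.59). Fkbp1b, another of the lower genes, rested on 49 UMIs in the sham and 53 UMIs in the I/R library. Of 19 ion channel genes 0 was at least 1.5-fold higher and 1 lower, the pacemaker channel Hcn2 (8.27 and 4.85 CPM, ratio -0.86), and the median was -0.096. Of 20 cardiac transcription factors and coactivators 5 were at least 1.5-fold higher and 0 lower (median 0.12), the higher ones including serum response factor, Srf (5.83 and 11.01 CPM, ratio 0.83), and the lipid-sensing receptor Ppara (19.4 and 32.0 CPM, ratio 0.64).

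The respiratory chain was lower in aged I/R. Of 72 nuclear genes for its subunits 0 were at least 1.5-fold higher and 22 lower. Their median was -0.50, where the young pair had 0.63. Their summed level was 57360 CPM in aged sham and 43494.5 CPM in aged I/R. It was 50547 CPM in young sham and 58310 CPM in young I/R. The ATP synthase subunit Atp5e had 1113 CPM in aged sham and 592 CPM in aged I/R (-0.998, interval -1.02 to -0.98), the complex III subunits Uqcr11 and Uqcr10 stood at -0.98 and -0.97, and the complex I subunit Ndufv2 was at the other end with 299.7 CPM in aged sham and 405 CPM in aged I/R (0.35). These are mostly short transcripts, and measured from protein-coding genes of the same length their median was -0.19.

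**Figure D3:**
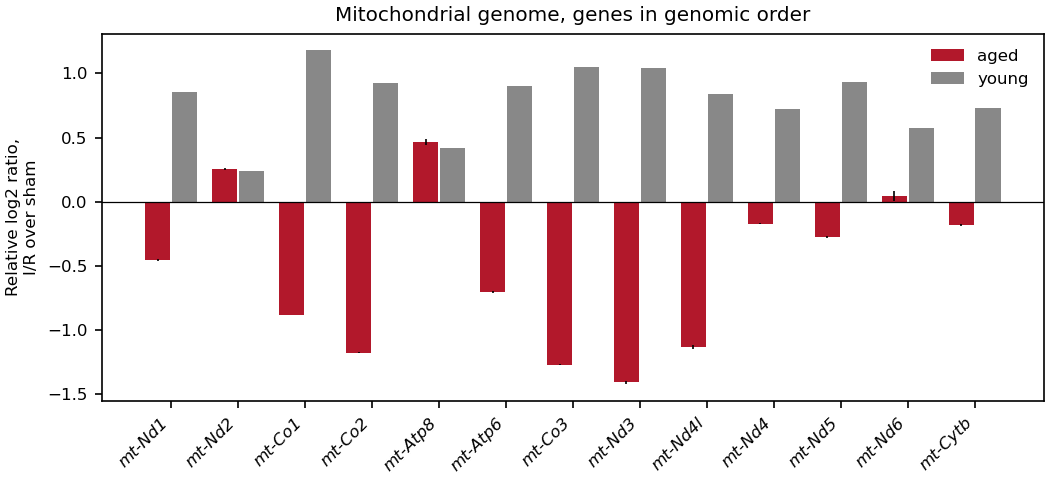
Relative log2 ratio (vertical axis) of the 13 protein-coding genes of the mitochondrial genome in genomic order, with red bars for the aged pair (I/R over sham) and grey bars for the young pair. Black lines on the red bars are 95% intervals for counting error, and 0 is the median of all genes in each pair. The aged bars run from 0.47 for mt-Atp8 to -1.41 for mt-Nd3, and all young bars are above 0. In the young pair that median was a log2 CPM ratio of -0.44, and mt-Nd2 had 7386 CPM in young sham and 6415 CPM in young I/R.

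The 13 protein-coding genes of the mitochondrial genome summed to 155637 CPM in aged sham and 99835 CPM in aged I/R, and had a median of -0.45 beside 0.86 in the young pair. They did not move as a unit, although they are transcribed as long common precursors. The cytochrome oxidase subunits mt-Co1, mt-Co2 and mt-Co3 had -0.88, -1.18 and -1.27, and mt-Nd3 of complex I had 3675 CPM in aged sham and 1471 CPM in aged I/R (-1.41, interval -1.42 to -1.40). In contrast mt-Cytb had 11331 CPM in aged sham and 10617 CPM in aged I/R (-0.18), mt-Nd2 6852 CPM in aged sham and 8669.8 CPM in aged I/R (0.25) and mt-Atp8 585 CPM in aged sham and 858 CPM in aged I/R (0.47). mt-Atp8 and mt-Atp6 share bases, as do mt-Nd4l and mt-Nd4, so their counts may not have been told apart. The share of mitochondrial UMIs, 15.6% in the sham and 9.98% in the I/R library, is the sum of these 13 genes and no separate measure.

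The 17 citric acid cycle genes had a median of 0.078 with 1 at least 1.5-fold higher, the succinate-CoA ligase Suclg2 (0.68), and 0 lower. Fatty acid beta-oxidation had a median of -0.10 over 20 genes, which turned to 0.054 against genes of the same length, with 0 at least 1.5-fold higher and 2 lower, the short-chain dehydrogenase Acads (166 and 93.5 CPM, ratio -0.91) and the carnitine transferase Cpt2 (-0.68). Fatty acid uptake was lower, with a median of -0.36 (-0.29 against genes of the same length) and 3 of 8 genes at least 1.5-fold lower, among them Fabp3 and the transporter Slc27a1 (89.4 and 57.2 CPM, ratio -0.73). Of 17 measured PPAR alpha targets 1 was at least 1.5-fold higher and 3 lower (median -0.23), the uncoupling protein Ucp3 being lowest (10.3 and 3.82 CPM, ratio -1.52).

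Pdk4, the kinase that shuts off the pyruvate dehydrogenase complex and the gene the study is about, was close to the median gene in the aged pair. It had 1618 UMIs in the sham and 2351 UMIs in the I/R library, or 39.1 CPM in aged sham and 35.2 CPM in aged I/R, a relative log2 ratio of -0.24 (-0.33 to -0.15). In the young pair it had 76.3 CPM in young sham and 533 CPM in young I/R (3.25). The other kinases Pdk1, Pdk2 and Pdk3 had 0.048, -0.43 and -0.083 in the aged pair, and the phosphatase subunit Pdp1, which reverses them, had -0.64. Over the 14 genes of the complex and its control the median was -0.061, changing sign with total-UMI scaling, with 1 at least 1.5-fold higher and 1 lower. Glycolysis had a median of -0.25 (-0.12 against genes of the same length), with 1 of 20 genes at least 1.5-fold higher and 3 lower. Hexokinase 2, Hk2, had 141 CPM in aged sham and 293 CPM in aged I/R (0.97, interval 0.92 to 1.01). Pfkfb1 was the lowest member of the list, with 14.1 CPM in aged sham and 7.29 CPM in aged I/R (-1.04). The muscle phosphofructokinase Pfkm and mutase Pgam2 stood at -0.66 and -0.70 and Gapdh at 0.036.

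**Figure D4:**
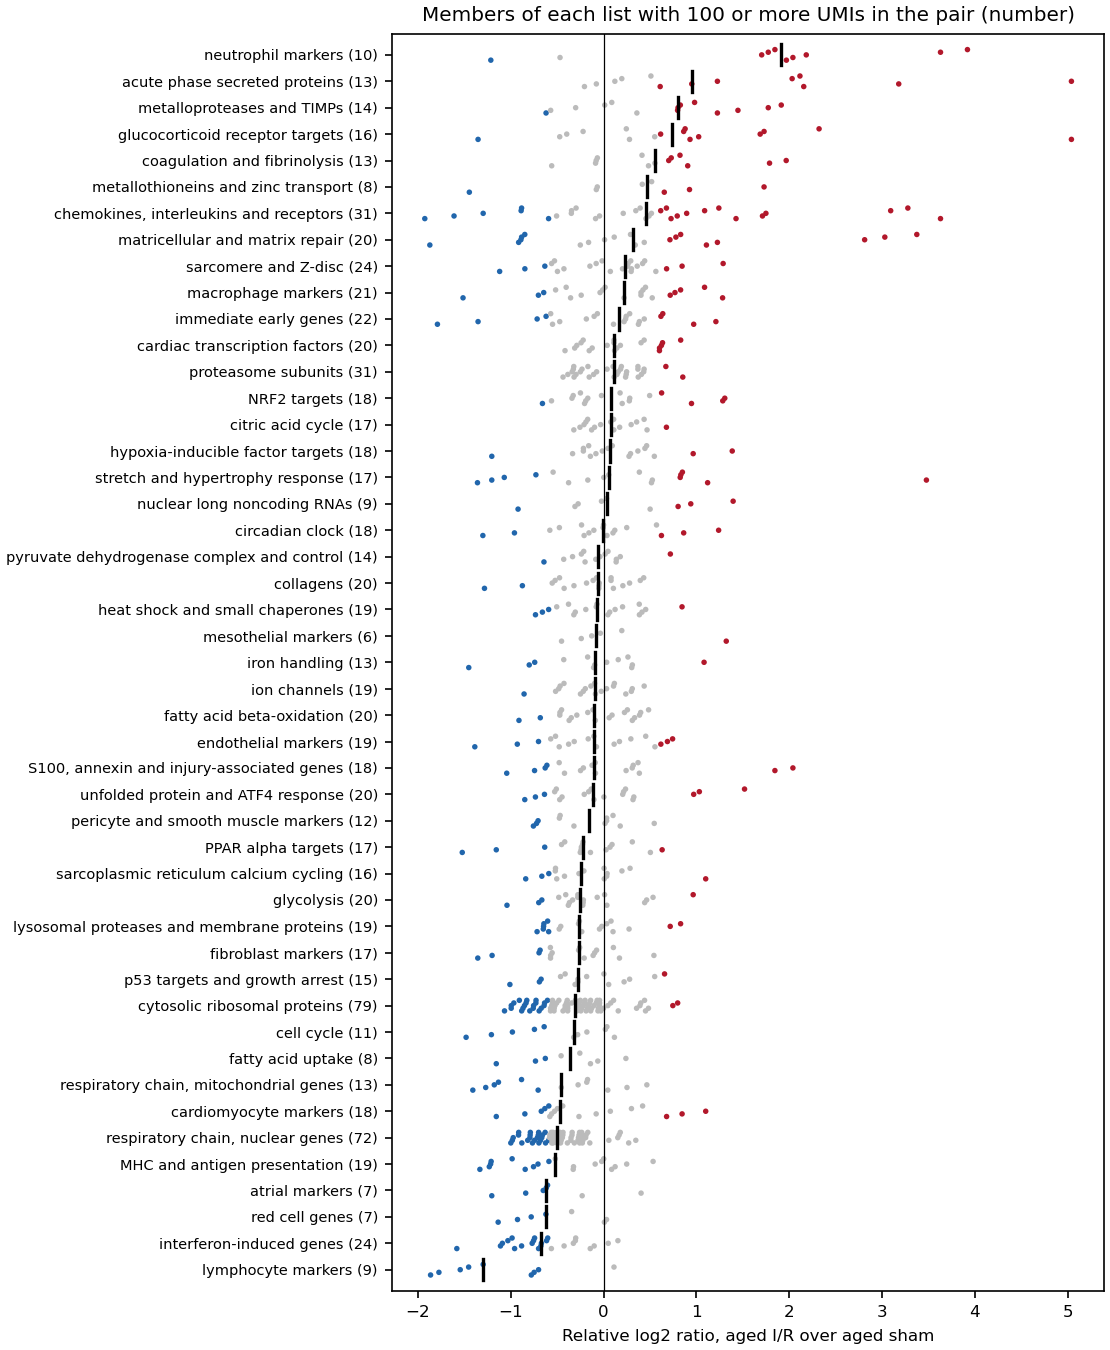
Relative log2 ratio of aged I/R over aged sham (horizontal axis) for the lists with 5 or more measured genes, 1 point a gene and a black bar at the list's median. Genes at least 1.5-fold higher are red and lower ones blue, the number of measured genes stands beside each name, and points are shifted vertically for legibility. Neutrophil markers (1.91) are at the top and lymphocyte markers (-1.30) at the bottom.

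Ribosomal protein genes were lower on the whole, 20 of 79 at least 1.5-fold lower and 2 higher, with a median of -0.30. Against genes of the same length the median was -0.094, and in the young pair it was 0.85. Rpl4, one of the larger proteins of the ribosome, stood highest with 170.3 CPM in aged sham and 314 CPM in aged I/R (0.80), and Rpl41, its smallest, stood lowest with 788 CPM in aged sham and 399.6 CPM in aged I/R (-1.07). Many have near-identical pseudogene copies, which makes single values uncertain. Proteasome subunits had a median of 0.11 (2 of 31 at least 1.5-fold higher, 0 lower), led by Psmd12 of the lid (57.6 and 111 CPM, ratio 0.85).

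Heat shock and chaperone genes had a median of -0.071 over 19, positive under total-UMI scaling and length centring, with 1 at least 1.5-fold higher, the cytosolic chaperone Hsp90ab1 (668 and 1274 CPM, ratio 0.85), and 3 lower, among them the mitochondrial co-chaperonin Hspe1 (-0.73). The unfolded protein and ATF4 response gave 3 at least 1.5-fold higher and 3 lower of 20 (median -0.12, young 0.92). Its leading member Pdia4, a disulfide isomerase of the endoplasmic reticulum, had 9.67 CPM in aged sham and 29.4 CPM in aged I/R (1.52, interval 1.36 to 1.68), while the pro-death factor Ddit3 had -0.73. Of 18 measured NRF2 targets 4 were at least 1.5-fold higher and 1 lower (median 0.078). The glutathione synthesis subunit Gclm had 19.9 CPM in aged sham and 52.4 CPM in aged I/R (1.31, interval 1.20 to 1.42) and heme oxygenase, Hmox1, 2.76 CPM in aged sham and 7.13 CPM in aged I/R (1.28, interval 0.99 to 1.59). Iron handling genes had a median of -0.095 over 13, positive at 0.05 after length centring, with 1 at least 1.5-fold higher, the iron hormone Hamp (1.38 and 3.10 CPM, ratio 1.08), and 3 lower. The transferrin receptor Tfrc, through which cells take in iron, was among the 15 lowest genes with 58.5 CPM in aged sham and 22.7 CPM in aged I/R (-1.45, interval -1.54 to -1.36).

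Targets of hypoxia-inducible factors stayed near the median gene at 24 h, with 2 of 18 at least 1.5-fold higher and 1 lower (median 0.071). Hif3a had 0.653 CPM in aged sham and 1.81 CPM in aged I/R (1.39), Hk2 was the other, and the vasodilator peptide adrenomedullin, Adm, had 12.2 CPM in aged sham and 5.63 CPM in aged I/R (-1.20). The p53 targets and growth arrest genes had a median of -0.27 (1 of 15 at least 1.5-fold higher, 3 lower), with the cell cycle inhibitor Cdkn1a at 25.3 CPM in aged sham and 39.3 CPM in aged I/R (0.55) and Phlda3 at -1.01. Cell cycle genes had a median of -0.32, 5 of 11 being at least 1.5-fold lower and 0 higher, among them topoisomerase Top2a (6.29 and 2.89 CPM, ratio -1.21) and Mki67 (6.79 and 3.65 CPM, ratio -0.98).

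The circadian clock list sat on the median gene, and the sign of its median of -0.0022 depended on the scaling, but its ends were apart. The period gene Per2 had 5.49 CPM in aged sham and 13.8 CPM in aged I/R (1.24, interval 1.03 to 1.46), and the repressor Nr1d1 had 89.2 CPM in aged sham and 38.5 CPM in aged I/R (-1.30, interval -1.37 to -1.23). Of 18 clock genes 3 were at least 1.5-fold higher and 2 lower. The time of day of collection is not given in the sources used here.

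Lysosomal proteases and membrane proteins had a median of -0.26, with 2 of 19 at least 1.5-fold higher, cathepsin S, Ctss (0.83), and Cd68 (0.72), and 6 lower. S100, annexin and other injury-associated genes had a median of -0.11 over 18 that turned to 0.19 against genes of the same length, beside 1.23 in the young pair. Apart from S100a8 and S100a9 no member was at least 1.5-fold higher, and thymosin beta 4, Tmsb4x, an actin-sequestering peptide, had 504 CPM in aged sham and 260.0 CPM in aged I/R (-1.04). Of 9 nuclear long noncoding RNAs 3 were at least 1.5-fold higher and 1 lower (median 0.033, negative with barcodes of 200 or more genes alone). Malat1 had 28796 CPM in aged sham and 43299.6 CPM in aged I/R (0.50). In the young pair the median of this list was -1.15 and Malat1 had -1.28.

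Among markers of vessels, fibroblasts and other structural cells, no listed marker was at 0 in either library apart from 1 adipocyte gene. Endothelial markers summed to 1704 CPM in aged sham and 1731 CPM in aged I/R, with a median of -0.10 and 3 of 19 at least 1.5-fold higher and 3 lower. The tight junction protein Cldn5 had 37.4 CPM in aged sham and 15.2 CPM in aged I/R (-1.39, interval -1.50 to -1.27), and the growth factor receptors Flt1 and Kdr went apart, at 136 CPM in aged sham and 241 CPM in aged I/R (0.74) and 229 CPM in aged sham and 149.7 CPM in aged I/R (-0.70). Fibroblast markers summed to 1188 and 1059.8 CPM, with a median of -0.27 and 4 of 17 at least 1.5-fold lower. Pericyte and smooth muscle markers summed to 869 and 835 CPM (median -0.15, positive with a minimum of 500 UMIs, 3 of 12 at least 1.5-fold lower). Mesothelial markers summed to 179.5 and 219 CPM, and the median of the 6 measured was -0.081, of changing sign with the scaling. Most of this sum was C3, which many cells make (165 and 201 CPM), while mesothelin, Msln, had 35 UMIs in the sham and 150 UMIs in the I/R library (1.32, interval 0.78 to 1.90). Another 6 members were under the minimum of 100 UMIs. Of these, Krt19 had 7 and 89 UMIs (0.169 and 1.33 CPM), Krt8 had 8 and 52 UMIs, Upk3b 9 and 54 UMIs and Lrrn4 1 and 30 UMIs, each with an interval above the median gene, while the intervals of Upk1b (15 and 41 UMIs) and Bnc1 (2 and 8 UMIs) included it. Schwann cell markers summed to 22.995 and 19.3 CPM with 4 of 8 measured (median -0.31). Of 8 adipocyte markers 1 was measured, the complement protease Cfd (2.18 and 0.479 CPM, ratio -2.27), with a sum over the list of 4.30 and 1.63 CPM. Red cell genes summed to 1706 CPM in aged sham and 1038 CPM in aged I/R (4 of 7 at least 1.5-fold lower, median -0.62), and the near-identical hemoglobin genes within them cannot be taken singly.

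The remaining genes at the ends of the ranking had less well known or other roles. Gm12840, a long intergenic noncoding RNA, had 4.18 CPM in aged sham and 20.6 CPM in aged I/R (2.21, interval 1.98 to 2.45), and Hmgn5, a nucleosome-binding protein of the X chromosome, had 16.8 CPM in aged sham and 49.5 CPM in aged I/R (1.47, interval 1.35 to 1.59). The latter had 0.45 in the young pair. On the lower side the transcripts 5430431A17Rik (78.5 and 26.3 CPM, ratio -1.67) and F830016B08Rik (102 and 36.9 CPM, ratio -1.55) and the membrane protein gene Tmem82 (20.3 and 7.07 CPM, ratio -1.61) completed the list with Gm49540, antisense to Mb, at 74.7 CPM in aged sham and 27.0 CPM in aged I/R (-1.56). The young pair had -1.47, -1.29, -0.014 and 0.78 for these 4. Gm42418, the gene with the most UMIs in the pair, which lies over a ribosomal RNA sequence, was near the median gene at -0.11.

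Transcript length and base composition went with the ratio across genes. Among 12731 protein-coding genes the median relative log2 ratio was -0.26 in the lowest of 10 equal bins of transcript length (243 to 1262 bases) and 0.19 in the highest (6609 to 123179 bases). In the young pair the same bins had 0.44 and -0.30, the opposite order. By the genomic span of the gene the ends were -0.25 and 0.16, and in the young pair 0.45 and -0.38. By GC content the aged median was at most 0.12, in the fourth bin, and -0.28 in the bin of highest GC. The Spearman correlation across genes was 0.24 with transcript length, 0.26 with span and -0.22 with GC in the aged pair, and -0.30, -0.29 and 0.11 in the young pair. Genes are not independent replicates and all points share the same 2 libraries, so these are descriptions. The SD of the ratio over genes was 0.50 around a single median and 0.49 around the medians of 20 length bins. Beside the lists for which it is given above, length centring moved the median of red cell genes to -0.29, of fibroblast markers to -0.40, of collagens to -0.21, of proteasome subunits to 0.22, of immediate early genes to 0.087 and of the unfolded protein list to -0.015. By gene type, the median was -0.013 for 12750 protein-coding genes, 0.36 for 283 antisense and 0.24 for 126 sense-intronic transcripts.

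**Figure D5:**
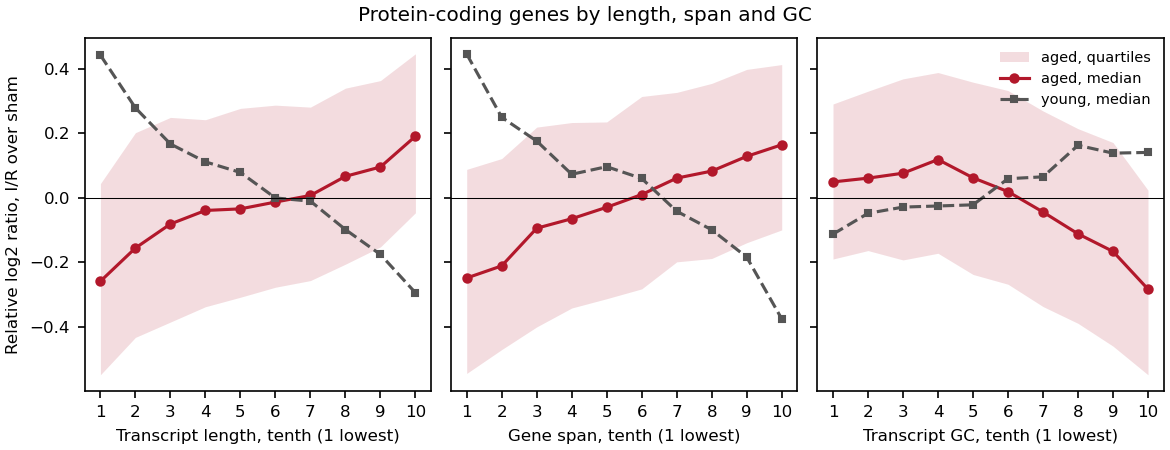
Median relative log2 ratio of protein-coding genes in 10 equal bins of transcript length, gene span and transcript GC content, for the aged pair (I/R over sham, with the quartiles of the genes as a band) and the young pair. The aged medians climb with length from -0.26 to 0.19, and the young medians go down from 0.44 to -0.30.

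The genes past the fold in the aged pair were set beside the young pair. Among 12448 genes measured in both, Pearson's r of the relative log2 ratios was 0.021 and Spearman's rho -0.14 (across genes, from 4 libraries). Of the 383 genes at least 2-fold higher in the aged pair 274 were measured in the young pair, where 81 (29.6%) were at least 2-fold higher and 68 (24.8%) at least 2-fold lower, against 5.55% and 9.15% of all genes. Of the 277 genes lower in the aged pair 199 were measured, with 13 (6.53%) higher and 39 (19.6%) lower in the young pair. The shares of all genes are not matched for level. The 383 higher and 277 lower genes had medians of 382 and 453 UMIs in the aged pair, against 1615.5 over all genes. Among the genes at least 2-fold higher in both pairs, the young pair had 3.69 for the neutrophil gene S100a8, 3.63 for the acute phase gene Serpina3n and 5.45 for the metallothionein Mt2. Pdia4 had 0.25 and Hmgn5 0.45 there, short of 1.5-fold, and Cldn5 had 0.41. Their CPM in young sham and young I/R were 10.7 and 9.38 for Pdia4, 18.5 and 18.6 for Hmgn5, and 26.6 and 25.9 for Cldn5.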

How the data were processed

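Left ventricle of 2 aged groups, 1 library each, was compared. The deposited values are counts of UMIs per gene and barcode, which the authors made with Cell Ranger 6.0.2 on the mm10 genome (GRCm38) as filtered matrices with no scaling. Counts were summed over all barcodes with Python 3.11.15, numpy 2.4.6, pandas 2.3.3 and scipy 1.17.1 and drawn with matplotlib 3.10.9. Genes needed 100 UMIs in the pair. The calculation was tested on simulated counts that held counting error and set folds only. Differences between animals or preparations were not part of that simulation. No cell types were called and doublets were not sought, since only sums were used. The depth of 41356670 and 66767829 UMIs gave a median interval width of 0.30 (log2), and 1.05 in the lowest of 10 bins of UMIs. Intervals cover counting error only. Coordinates, gene types and lengths came from GENCODE M21.

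Named genes are the 15 highest and 15 lowest with 20 CPM or more in a library, the 10 with the most UMIs, the 2 members at each end of a list, and Pdk4. The comparison and the 49 lists (907 symbols, 4 not in the files; 12 are marker lists) were chosen with earlier results of these data known. List members named beyond this rule were chosen for their role after their values were seen. Alternatives were other centres, minimum UMIs and barcode subsets, thinning barcodes to 300 UMIs, and, added after the values were seen, centring by transcript length and by a fit on length, span and GC. The young libraries served as side values. The study's cell names, protein and metabolite data were not used here.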

Additional observations from a re-analysis of the deposited data

Results flagged for a closer look

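Among the 205 genes that the naming rule gives, 4 went past 2-fold in opposite directions in the aged and the young pair. All 4 were lower in the aged and higher in the young pair. Over all genes measured in both pairs, 13 of the 199 at least 2-fold lower in the aged pair were at least 2-fold higher in the young pair. This was 6.53%, near the 5.55% of all genes. In the other direction, 68 of the 274 higher in the aged pair were at least 2-fold lower in the young pair. This was 24.8%, against 9.15% of all genes. The relative log2 ratio, I/R to sham, was -1.20 in the aged and 2.10 in the young pair for Nppa, -1.36 and 1.28 for Acta1, -1.27 and 1.05 for mt-Co3, and -1.41 and 1.04 for mt-Nd3. The young values include the subtracted young median of -0.44. Young sham and young I/R had 335 and 1055 CPM for Nppa and 241 and 432 CPM for Acta1. They had 16808 and 25646 CPM for mt-Co3 and 2251 and 3415 CPM for mt-Nd3. Without centring only Nppa of these genes was past 2-fold in the young pair. The difference between the pairs was not tested, as each of the 4 conditions had 1 library.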

How the results depend on the processing

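The counts of genes past the fold depended on the minimum of UMIs. With a minimum of 20 UMIs 795 genes were at least 2-fold higher and 618 lower, with 500 UMIs 166 and 132, and with 1 UMI in each library 1532 and 1623. At 1.5-fold, 1001 genes were higher with 500 UMIs, and 3520 were higher and 4068 lower with 1 UMI in each library. A fold of 1.5 in place of 2 gave 1540 and 1396. A lower minimum admits more genes, and those it admits have wider counting error. Under the other alternatives all 4 counts stayed within 1.5 times their value, and 30 of 30 genes at the ends stayed past 2-fold (25 of 25 with a length under the 2 added centrings). Of the genes past 2-fold, 240 of 270 higher and 180 of 241 lower ones were also past it with length centring, and 224 of 256 and 168 of 192 with barcodes thinned to 300 UMIs, but 242 of 318 and 182 of 222 with barcodes of 400 to 1000 UMIs alone. Length centring moved 23 of 48 list medians by 0.1 or more (log2) and the other 25 by less, and the cause was not tested. No value past 1.5-fold changed sign under any alternative that was run. No paired analysis was possible because each condition had 1 library. Depth limits the genes with the fewest UMIs, whose interval had a median width of 1.05 in the lowest of 10 bins.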

Other observations

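Families of protein-coding genes that share the letters before the first digit of their symbol, with 10 or more measured members, numbered 144. This grouping was made after the values were seen and carries no test. By median relative log2 ratio the highest were the CXC chemokines Cxcl (0.91 over 10 genes, 6 at least 1.5-fold higher and 3 lower), the chromatin remodelers Chd (0.49 over 10, 4 higher and 0 lower), the Utp proteins that assemble the small ribosomal subunit (0.45 over 11, 5 higher and 0 lower) and the centrosomal proteins Cep (0.33 over 35, 10 higher and 1 lower). The lowest were the interferon-induced Ifi genes (-0.63 over 14, 8 lower), the complex I subunits Ndufa (-0.54 over 14, 4 lower) and the tetraspanins Tspan (-0.47 over 17, 8 lower), none of which had a member at least 1.5-fold higher. In the young pair the medians were 0.77 for Cxcl, -0.14 for Chd, 0.36 for Utp and -0.53 for Cep. They were -0.46 for Ifi, 0.64 for Ndufa and 0.24 for Tspan. Measured from genes of the same transcript length, the aged medians were 1.11 for Cxcl, 0.35 for Chd, 0.32 for Utp, 0.36 for Cep, -0.60 for Ifi, -0.15 for Ndufa and -0.47 for Tspan.

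Cxcl3, a ligand of Cxcr2 chosen after its values were seen, had 2 UMIs in the sham and 114 UMIs in the I/R library, a relative log2 ratio of 5.06 (3.17 to 8.12). The hemoglobin gene Hbb-bs and the nuclear RNA Neat1 were among the few genes found, in both libraries, in fewer barcodes than their UMIs spread by depth would fill: 5 genes of the sham and 4 of the I/R library lay under 0.9 of that number.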
